A study of Mus musculus with 7 samples.

Results

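CT1BA5 tumour mesothelial cells were eGFP+ PanMeso cells, a mouse mesothelial cell culture from the pancreas, that had grown inside tumours and were then sorted back out. They make up 2 of the 7 RNA-seq libraries of the series and are set against the 3 parental libraries, so 5 libraries carry the comparison. Members were taken from the sample labels alone, and the change was followed over all 13784 genes that passed a low-count filter, of 54532 in the count table. The CT1BA5 group was eGFP+ PanMeso cells put into the pancreas together with CT1BA5 pancreatic cancer cells and recovered from the tumours by fluorescence-activated sorting for eGFP. A second tumour group of 2 libraries, made the same way with BMFA3 cancer cells, is used only for comparison. The parental group was the same cells in culture, in a medium with 400 nM hydrocortisone, 3.3 nM mouse epidermal growth factor and 870 nM insulin, kept at 33 °C and moved to 37 °C for 3 days before use. The groups therefore differ in culture medium, in passage through an animal and in sorting as well as in the tumour, and these cannot be told apart. The labels name no mouse strain or age, and do not say whether libraries of 1 group came from separate tumours or cultures, so p-values measure the spread between these libraries.

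Mesothelial cells are the flat, keratin-bearing lining of the body cavities and the organ surfaces, and are known for mesothelin, uroplakins, tight junctions and a lubricating surface. In injured or tumour-bearing tissue they can lose their epithelial contacts and take on features of fibroblasts. Cancer-associated fibroblasts are usually described by collagens, smooth muscle actin, inflammatory cytokines and, in the setting of this series, antigen presentation. The account below concerns the whole transcriptome, in particular genes that went between nearly no counts and clear expression, and families outside those usual lists.

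Library totals were 14327365 to 16981596 counts for CT1BA5 and 10096839 to 19210598 for parental cells. Levels are CPM, counts relative to the library size after scaling by TMM (a trimmed mean of ratios), so they compare 1 gene between samples and not genes of different length. Mesothelial markers were found in both groups, with 19 of 25 above 1 CPM in CT1BA5 and 22 in parental cells. Their summed level was 2569.5 to 2576 CPM in CT1BA5 cells, against 17910 to 19548 CPM in parental cells, and 21 of the 23 tested fell while 2 rose. Counts of markers that rose or fell, here and below, stand against 35.5% of all tested genes higher and 35.1% lower. Pdpn was the largest part of the CT1BA5 sum, at 863 and 920 CPM against 520, 560 and 556 CPM in parental cells. Cldn15 had 0.647 and 0.623 CPM in CT1BA5 and 90.5, 100 and 101 CPM in parental cells. Of 16 macrophage and monocyte markers, 8 had 0 counts in all 5 libraries, among them Ptprc, the pan-leukocyte gene, and the summed level was 28.5 to 28.6 CPM in CT1BA5 and 15.1 to 27.98 CPM in parental cells. Of 15 lymphocyte markers 11 were at 0, Cd3e and Cd8a included, and the sum was 3.88 to 4.98 CPM in CT1BA5 and 0 to 0.460 CPM in parental cells. Most of that sum was Trac, the T cell receptor alpha constant gene, at 3.23 and 4.21 CPM in CT1BA5 cells and 0.368, 0 and 0 CPM in parental cells. Ms4a1 had 0.647 and 0.623 CPM in CT1BA5 and 0 parental counts. Of 10 neutrophil markers 6 had 0 counts in all 5 libraries. The 1 that was tested, S100a8, rose, at 1.16 and 2.26 CPM in CT1BA5 and 0 parental counts. Endothelial markers summed to 55.4 to 58.4 CPM in CT1BA5 and 172 to 187 CPM in parental cells, with Cdh5 at 0 in every one of the 5. Of 4 tested, 1 rose and 2 fell. Egfl7 had 5.69 and 10.8 CPM in CT1BA5 and 1.01, 2.47 and 2.85 CPM in parental cells. Kdr had 15.2 and 13.9 CPM in CT1BA5 and 96.4, 96.5 and 105 CPM in parental cells. Markers of duct and tumour epithelium summed to 228 to 255 CPM in CT1BA5 and 1479 to 1612 CPM in parental cells. Nearly all of this was keratin that mesothelium shares, and of 9 tested 2 rose and 6 fell. Epcam stood at 0.259 and 0.389 CPM in CT1BA5 and 0.0920, 0 and 0 CPM in parental cells. Krt20 had 3.62 and 4.83 CPM in CT1BA5 and 1.10, 0.437 and 0.540 CPM in parental cells. Cldn4 had 0.906 and 0.934 CPM in CT1BA5 and 0, 0 and 0.147 CPM in parental cells. Of 10 pericyte and stellate markers 7 were tested, and all 7 rose (6 with library totals as the scale). The list summed to 272 to 306 CPM in CT1BA5 against 111 to 121 CPM in parental cells. Notch3 libraries overlapped, at 78.3 and 54.98 CPM in CT1BA5 and 50.3, 55.2 and 55.2 CPM in parental cells. Abcc9 and Higd1b had 0 counts in both groups, and Kcnj8 had 1 count in CT1BA5 and 0 in parental cells. In bulk RNA, fewer cells of a type and less RNA per cell cannot be told apart.

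The change reached most of the transcriptome. At an adjusted p below 0.05 (edgeR, quasi-likelihood F test, Benjamini-Hochberg over all tested genes), 4899 genes (35.5%) rose and 4844 (35.1%) fell in CT1BA5 relative to parental cells, 9743 (70.7%) in all. Changes shown to exceed 2-fold (edgeR's glmTreat) numbered 1284 higher (9.32%) and 1726 lower (12.5%), or 3010 (21.8%) together. Fitted folds of at least 32 were reached by 184 genes that were higher and 159 that were lower. Libraries of the groups did not overlap for 10813 genes (78.4%). The median log2 fold change was -0.000458 with TMM; with library totals alone as the scale it was -0.23, and 3495 genes rose and 6280 fell, so 35.8% of calls were upward in place of 50.3%. At any change, a count of called members thus sits on a high background, and the counts at more than 2-fold are the more selective ones.

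**Figure D1:**
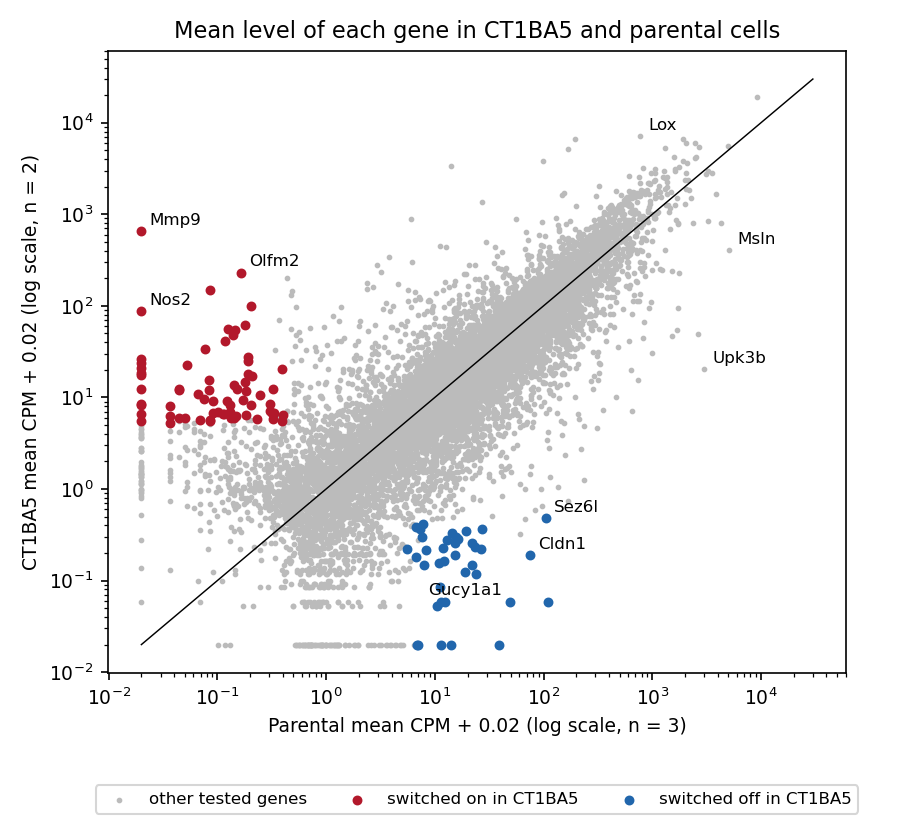
Mean CPM of each of the 13784 tested genes in CT1BA5 cells (vertical, n = 2) against parental cells (horizontal, n = 3), both on log scales after adding 0.02. Red points are the 69 genes switched on and blue points the 38 switched off, and the diagonal marks equal levels. Mmp9 stands 659 CPM high at 0 parental counts, and Sez6l, low on the right, has means of 0.46 CPM in CT1BA5 cells and 105 CPM in parental cells.

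The largest gains in abundance were not all among the strongest folds. Among the genes with the largest gain in mean CPM were Eef1a1, Lox, Timp1, mt-Co1, Col1a1, Tmsb4x and Ptgs2. Lox, the enzyme that cross-links collagen and elastin, had 7574 and 6796 CPM in CT1BA5 cells and 733, 777 and 801 CPM in parental cells (log2 fold change 3.22 ± 0.06, SE; edgeR quasi-likelihood adjusted p = 1.1e-19). Ptgs2, the inducible cyclooxygenase, had 3925 and 3747 CPM in CT1BA5 cells and 95.4, 98.4 and 104 CPM in parental cells (log2 5.27 ± 0.07, adjusted p = 2.0e-21). In both genes the lowest CT1BA5 library lay far above the highest parental one. Timp1, an inhibitor of matrix metalloproteinases whose reads may include those of the overlapping gene Syn1, stood at 4728 and 5626 CPM in CT1BA5 and 155, 173 and 173 CPM in parental cells (log2 4.96 ± 0.07). Eef1a1, the elongation factor of translation, rose by only 1.07 ± 0.04 on the log2 scale, and this was not shown to exceed 2-fold.

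The 8 genes with the largest loss in mean CPM were Msln, Anxa1, Upk3b, Efemp1, S100a6, Timp2, Aldh1a1 and Upk1b, with 0.348 to 0.360% of counts in CT1BA5 and 2.69 to 2.75% in parental libraries. Upk3b, a uroplakin of the mesothelial surface, had 20.96 and 19.8 CPM in CT1BA5 cells and 2750.1, 3039 and 3150.1 CPM in parental cells (log2 -7.19 ± 0.09, edgeR adjusted p = 2.1e-21). Efemp1, the matrix protein fibulin-3, had 50.1 and 48.3 CPM in CT1BA5 cells and 2591, 2682 and 2646 CPM in parental cells (log2 -5.74 ± 0.08, adjusted p = 2.8e-21). In both genes the CT1BA5 libraries lay far below the parental ones. Aldh1a1, which oxidises retinaldehyde to retinoic acid and overlaps the predicted gene C730002L08Rik, had 52.8 and 55.6 CPM in CT1BA5 cells and 1763, 1703 and 1635 CPM in parental cells (log2 -4.97 ± 0.08).

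A gene was called switched on when every parental library held at most 0.5 CPM and both CT1BA5 libraries at least 5 CPM, and switched off in the reverse case. By this rule 69 genes were switched on, 0.692% of the 9973 genes at 5 CPM or more in both CT1BA5 libraries, and 38 were switched off, 0.373% of the 10183 at that level in every parental library. Since the rule uses the values themselves, the levels that follow describe the genes it chose, and functional groups among them were formed after their values were seen. The switched-on genes took 0.191 to 0.197% of the counts in CT1BA5 and 0.000750 to 0.000916% in parental libraries, and the switched-off genes 0.000496 to 0.000701% in CT1BA5 and 0.0868 to 0.0904% in parental libraries. GENCODE M21 labels 66 of the 69 as protein-coding and 2 as long intergenic RNAs, Zfp469 among the latter, and has no entry for 1. It labels all 38 switched-off genes as protein-coding. At the upper level Bpifc just passed with 5.11 CPM in its lower CT1BA5 library and Kcnn3 just missed with 4.98 CPM; at the near-0 level Tnni1 just passed with 0.491 CPM in its highest parental library and Syt7 just missed with 0.509 CPM. Among switched-off genes, Npy4r just passed with 5.15 CPM and AU021092 just missed with 4.95 CPM in the lowest parental library, and Sez6l passed with 0.467 CPM and Smad9 missed with 0.518 CPM in the higher CT1BA5 library.

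Of the switched-on genes, 12 had no parental count at all. Mmp9, the gelatinase that degrades basement membrane collagen (ENSMUSG00000017737; GRCm38 chromosome 2, 164940780 to 164955850), had 672 and 646 CPM in the CT1BA5 libraries, from 10383 and 8291 counts, and 0 counts in each parental library. Against a floor of 3 counts over the 3 parental libraries (0.0667 CPM) its level was at least 9879-fold higher. Nos2, the inducible nitric oxide synthase, had 88.2 and 85.9 CPM in CT1BA5 cells and 0 counts in each parental library, at least 1306-fold higher. Moxd1, a copper monooxygenase related to dopamine beta-hydroxylase, had 26.7 and 25.4 CPM in CT1BA5 cells and 0 parental counts, at least 390-fold higher. Tnfrsf11b, which encodes osteoprotegerin, the decoy receptor of RANKL, had 23.03 and 24.1 CPM in CT1BA5 cells and 0 parental counts, at least 353-fold higher. The other 8 with 0 parental counts were Sprr2e, Sema7a, Prss46, Cd40, Zfp469, Ednra, Fgl2 and Col10a1. Counting error alone is covered by these floors.

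The most abundant switched-on genes with a few parental counts spread over unrelated functions. Olfm2, a secreted olfactomedin glycoprotein known from neurons and smooth muscle, had 232 and 228 CPM in CT1BA5 cells and 0.09203, 0.146 and 0.196 CPM in parental cells, a ratio of 1481 (95% exact interval for counting error 718 to 3684). Rasl12, a Ras-like small GTPase, had 59.4 and 63.6 CPM in CT1BA5 cells and 0.184, 0.291 and 0 CPM in parental cells. Both were within a few reads of 0 in culture. Lgr6, a receptor of R-spondins, had 56.2 and 53.6 CPM in CT1BA5 and 0.184, 0 and 0.196 CPM in parental cells, and Kif21b, a kinesin motor, had 41.1 and 25.9 CPM in CT1BA5 and 0, 0.0728 and 0.0981 CPM in parental cells. Cthrc1, a secreted protein of matrix-depositing fibroblasts, had 45.4 and 49.8 CPM in CT1BA5 and 0.184, 0.0728 and 0.0981 CPM in parental cells. C1qtnf3, a secreted relative of complement C1q and tumour necrosis factor, had 24.2 and 25.8 CPM in CT1BA5 and 0.276, 0.146 and 0.0981 CPM in parental cells.

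**Figure D2:**
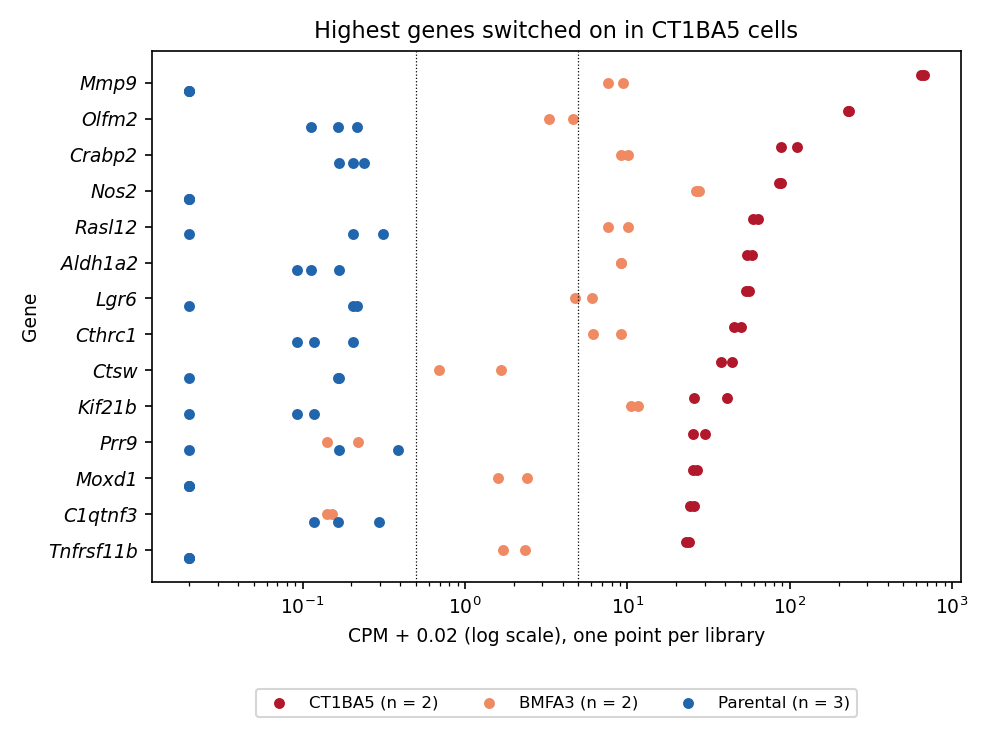
CPM in each library (horizontal, log scale, 0.02 added) of switched-on genes with the highest CT1BA5 means, among those reported here. Points are libraries of CT1BA5, BMFA3 and parental cells, from top to bottom within a gene, and dotted lines mark 0.5 and 5 CPM. The lowest CT1BA5 point is Tnfrsf11b at 23.03 CPM and the highest parental point Prr9 at 0.368 CPM, while BMFA3 lies between for most genes.

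Retinoic acid genes appeared on both sides. Retinoic acid is made from retinaldehyde by aldehyde dehydrogenases of the Aldh1a group and is carried in the cell by binding proteins. Crabp2, one such carrier, had 88.6 and 111 CPM in CT1BA5 cells and 0.184, 0.218 and 0.147 CPM in parental cells, and its relative Crabp1 had 8.35 and 9.97 CPM in CT1BA5 and 0.09203, 0.0728 and 0.0491 CPM in parental cells. Aldh1a2, a mesothelial marker in the embryo, had 58.8 and 54.2 CPM in CT1BA5 and 0.09203, 0.0728 and 0.147 CPM in parental cells, and Aldh1a3 had 11.8 and 11.4 CPM in CT1BA5 and 0, 0.146 and 0.343 CPM in parental cells. These 4 were switched on while the sister enzyme Aldh1a1 fell to a mean of 54.2 CPM in CT1BA5 cells, against 1700.2 CPM in parental cells.

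Receptors and ligands made up another group. Ednra, the endothelin A receptor of vascular smooth muscle, had 8.47 and 8.099 CPM in CT1BA5 cells and 0 parental counts, and Pth1r, the parathyroid hormone receptor, had 19.4 and 14.95 CPM in CT1BA5 and 0, 0.218 and 0.343 CPM in parental cells. Gpbar1, the membrane receptor of bile acids, had 11.5 and 15.8 CPM in CT1BA5 and 0, 0.218 and 0.147 CPM in parental cells. The nuclear bile acid receptor Nr1h4 was switched off, at 0.0647 and 0.467 CPM in CT1BA5 and 16.2, 18.7 and 14.4 CPM in parental cells. Fgf21, a hormone of the fibroblast growth factor family, had 11.6 and 12.7 CPM in CT1BA5 and 0, 0.0728 and 0 CPM in parental cells, with 1 read among the parental libraries. Sema7a, a membrane-anchored semaphorin, had 18.95 and 17.5 CPM in CT1BA5 cells and 0 parental counts.

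Genes of contractile and stretchable tissue were switched on at low levels. Tnni1, troponin I of slow skeletal muscle, had 19.3 and 21.4 CPM in CT1BA5 cells and 0.276, 0.364 and 0.491 CPM in parental cells. Acta1, the actin of skeletal muscle, had 10.4 and 8.02 CPM in CT1BA5 and 0.09203, 0.218 and 0 CPM in parental cells, and Actg2, the actin of enteric smooth muscle, had 7.05 and 6.23 CPM in CT1BA5 and 0.184, 0 and 0.0981 CPM in parental cells. Actin genes resemble each other, so reads of these may be shared with more abundant actins. Eln, elastin, had 8.54 and 5.37 CPM in CT1BA5 and 0, 0.146 and 0.0981 CPM in parental cells, Itga11, a collagen-binding integrin chain, had 17.5 and 13.6 CPM in CT1BA5 and 0.09203, 0 and 0.0981 CPM in parental cells, and Lrrc15, a membrane protein of activated fibroblasts, had 13.97 and 10.04 CPM in CT1BA5 and 0.09203, 0 and 0.0981 CPM in parental cells. Col10a1, the collagen of hypertrophic cartilage, overlaps Nt5dc1, and its 5.499 and 5.45 CPM in CT1BA5 cells against 0 parental counts is uncertain to that extent.

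Several switched-on genes are best known from leukocytes. Cd40, a costimulatory receptor of the tumour necrosis factor receptor family, had 11.1 and 13.4 CPM in CT1BA5 cells and 0 parental counts. Fcgr3, an Fc receptor, had 8.47 and 8.25 CPM in CT1BA5 and 0.368, 0.146 and 0.343 CPM in parental cells. Ctsw, a cathepsin of cytotoxic lymphocytes, had 37.7 and 44.4 CPM in CT1BA5 and 0, 0.146 and 0.147 CPM in parental cells, but overlaps Fibp, and Cxcr6, a chemokine receptor, overlaps Fyco1. All 4 tested macrophage and monocyte markers rose, 2 of them also with library totals as the scale: beside Fcgr3, Csf1r had 5.76 and 5.37 CPM in CT1BA5 and 2.76, 3.13 and 4.22 CPM in parental cells, Cd68 12.6 and 13.004 CPM in CT1BA5 and 8.83, 11.1 and 10.4 CPM in parental cells, and Fcer1g 0.841 and 0.934 CPM in CT1BA5 and 0.184, 0 and 0.147 CPM in parental cells. Their part in the values of these genes was not tested. In the same list Ptprc, Itgam, C1qa, C1qb, C1qc, Tyrobp, Adgre1 and Ms4a7 were at 0 in all 5 libraries, as were Cd3e, Cd3g, Cd8a and Nkg7 among lymphocyte genes. The level of Trac given above moved with Ctsw and Cxcr6, and its part in their values was not tested. In the other direction, Ms4a4b, a membrane protein known from T cells, was switched off, at 0.129 and 0.389 CPM in CT1BA5 and 11.4, 14.8 and 12.6 CPM in parental cells.

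A few switched-on genes lie side by side in the genome. Prr9, Sprr2e and Sprr2h sit in the epidermal differentiation cluster of chromosome 3, which holds genes of the cornified envelope of skin, with gaps of 228 and 32.2 kb between them. Prr9 had 25.4 and 29.98 CPM in CT1BA5 cells and 0.368, 0 and 0.147 CPM in parental cells. Sprr2e, a small proline-rich protein of that envelope, had 21.3 and 20.1 CPM in CT1BA5 cells and 0 parental counts, and Sprr2h had 6.02 and 7.01 CPM in CT1BA5 and 0.276, 0 and 0 CPM in parental cells; Sprr2 genes are near copies and may share reads. Each was above 6 CPM in both CT1BA5 libraries and near 0 in culture. The serine protease genes Prss46 and Prss50 are neighbours on chromosome 9, 1.445 kb apart with no protein-coding gene between, at 16.8 and 17.9 CPM and 5.43 and 6.54 CPM in CT1BA5 cells against 0 counts and 0, 0.0728 and 0 CPM in parental cells. Mmp9 and Cd40 lie 99.8 kb apart on chromosome 2 with 2 protein-coding genes between. No pair of switched-off genes lay within 500 kb.

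The 250 bases before the start of the 3 genes of the epidermal cluster are shown because these genes moved together, and those of Acta1 for comparison, from RefSeq on GRCm38.p6. Capitals mark the letters TATAAA and TGANTCA, the AP-1 motif bound by Fos and Jun proteins, and in Acta1 the CArG box bound by serum response factor; all were searched on both strands and no marked stretches overlapped.
Prr9, minus strand of chr3:92123948-92124197: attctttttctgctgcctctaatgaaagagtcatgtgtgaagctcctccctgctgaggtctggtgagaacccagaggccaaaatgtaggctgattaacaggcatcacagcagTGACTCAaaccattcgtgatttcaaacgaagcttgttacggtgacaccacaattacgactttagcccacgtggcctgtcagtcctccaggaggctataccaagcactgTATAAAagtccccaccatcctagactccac
Sprr2e, plus strand of chr3:92351893-92352142: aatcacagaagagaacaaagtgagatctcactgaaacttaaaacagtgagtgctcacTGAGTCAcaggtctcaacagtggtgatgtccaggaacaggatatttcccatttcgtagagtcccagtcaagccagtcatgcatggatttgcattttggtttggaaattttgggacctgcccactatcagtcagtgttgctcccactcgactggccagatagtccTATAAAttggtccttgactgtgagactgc
Sprr2h, plus strand of chr3:92385435-92385684: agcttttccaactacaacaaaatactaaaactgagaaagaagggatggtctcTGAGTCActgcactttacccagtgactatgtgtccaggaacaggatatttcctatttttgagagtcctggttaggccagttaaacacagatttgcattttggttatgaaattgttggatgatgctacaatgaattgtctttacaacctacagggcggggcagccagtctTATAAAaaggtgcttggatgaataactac
Acta1, minus strand of chr8:123894776-123895025: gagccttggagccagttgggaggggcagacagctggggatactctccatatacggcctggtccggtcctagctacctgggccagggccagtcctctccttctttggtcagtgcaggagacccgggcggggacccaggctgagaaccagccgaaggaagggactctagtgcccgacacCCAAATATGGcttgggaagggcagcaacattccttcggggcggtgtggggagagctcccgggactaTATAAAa
The AP-1 motif begins 138, 193 and 198 bases before the start in Prr9, Sprr2e and Sprr2h, and TATAAA begins 30, 29 and 29 bases before it. In Acta1 the CArG box begins 73 bases before the start and TATAAA 7. RefSeq promoters were found for 46 of the 69 switched-on and 30 of the 38 switched-off genes. The AP-1 motif was in 8 of the 46 (17.4%) and 1 of the 30 (3.33%), in 4.32% of 10231 promoters of tested genes and in 6.44% of 20584 promoters in all. The other 5 switched-on promoters with it belong to Bpifc, Fgl2, Htr2b, Lrrc15 and Rph3a. TATAAA was in 17.4% of switched-on, 13.3% of switched-off, 6.36% of tested and 12.2% of all promoters. The CArG box was in 1 of the 46, in none of the 30, and in 1.17% of tested and 1.34% of all promoters. A match of letters is a description and not a bound site.

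Among the switched-off genes was an enzyme of detoxification. Sult1a1, a sulfotransferase of phenols that overlaps Sgf29, had 0 counts in both CT1BA5 libraries and 40.1, 38.4 and 39.0 CPM in parental cells, at least 370-fold lower against a floor of 3 counts over the CT1BA5 libraries (0.106 CPM). Gucy1a1, a subunit of the soluble guanylate cyclase that senses nitric oxide, had 0 and 0.0779 CPM in CT1BA5 and 49.2, 48.4 and 51.1 CPM in parental cells, a ratio of 1410 (95% exact interval 253 to 55697). Each of these thus held at most 1 read in CT1BA5 cells, and Gucy1a1 moved opposite to Nos2 in the same comparison. The other 4 genes with no CT1BA5 count were A730046J19Rik, Krt15, Fxyd3 and Ccdc3.

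**Figure D3:**
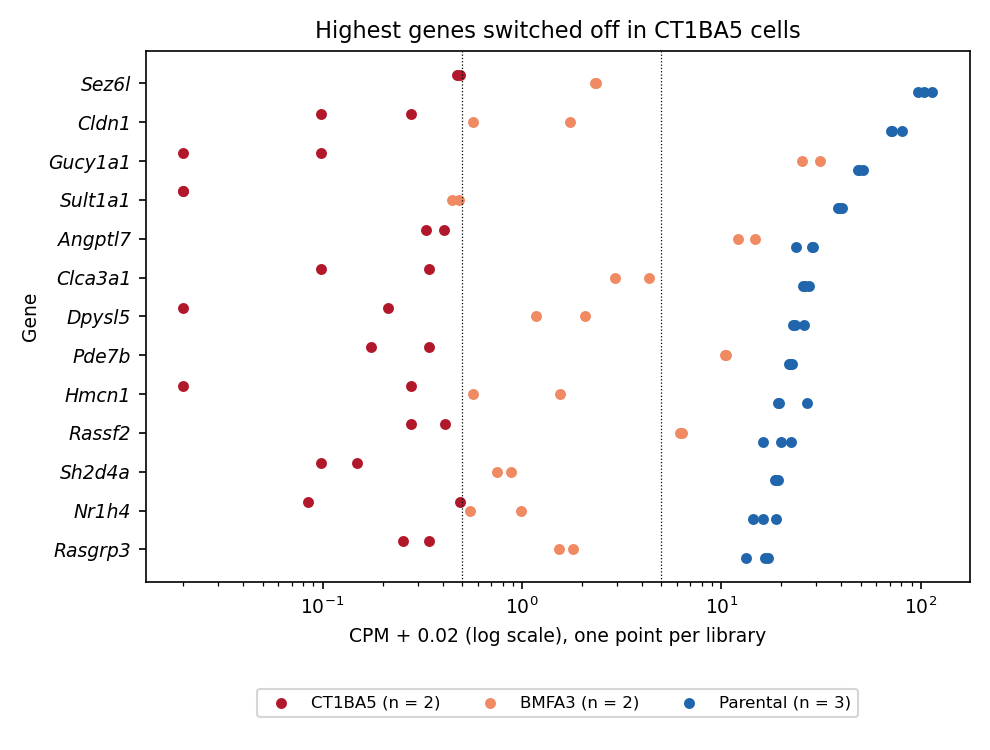
CPM in each library (horizontal, log scale, 0.02 added) of switched-off genes with the highest parental means, among those reported here. Points are libraries of CT1BA5, BMFA3 and parental cells, from top to bottom within a gene, and dotted lines mark 0.5 and 5 CPM. Each CT1BA5 point lies at 0.467 CPM or less, and Gucy1a1, Angptl7, Pde7b and Rassf2 stay above 5 CPM in BMFA3 cells.

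Other switched-off genes included genes of epithelial contacts and the cell surface. Cldn1, a claudin of tight junctions, had 0.259 and 0.0779 CPM in CT1BA5 cells and 80.8, 71.1 and 71.5 CPM in parental cells, and Krt15, a keratin of basal epithelium, had 0 CT1BA5 counts and 10.6, 11.2 and 12.4 CPM in parental cells. Itgb8, the integrin chain that activates latent TGF-beta, had 0.129 and 0 CPM in CT1BA5 and 8.83, 10.7 and 14.1 CPM in parental cells. Clca3a1, a calcium-activated chloride channel regulator, had 0.323 and 0.0779 CPM in CT1BA5 and 25.6, 27.5 and 26.3 CPM in parental cells. Each of these was at most 0.323 CPM in CT1BA5 cells. Neuronal names occurred here too: Sez6l, a membrane protein of neurons, had 0.453 and 0.467 CPM in CT1BA5 and 97.3, 104 and 114 CPM in parental cells, and Dpysl5, a collapsin response mediator of axon growth, had 0.194 and 0 CPM in CT1BA5 and 22.9, 23.4 and 26.05 CPM in parental cells. Among regulators, Gata5, a zinc finger transcription factor of heart and gut, had 0.0647 and 0 CPM in CT1BA5 and 11.6, 8.73 and 10.8 CPM in parental cells, and Rasgrp3, a Ras exchange factor, had 0.323 and 0.234 CPM in CT1BA5 and 13.3, 17.03 and 16.6 CPM in parental cells. Pde7b, a phosphodiesterase of cyclic AMP, had 0.323 and 0.156 CPM in CT1BA5 and 21.7, 22.6 and 22.1 CPM in parental cells. Fam180a and Tmtc1, which missed the near-0 level, had 0.259 and 1.17 CPM and 0.0647 and 0.545 CPM in CT1BA5 cells against 165, 166 and 171 CPM and 55.8, 56.4 and 68.2 CPM in parental cells.

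The tumour made with BMFA3 cells gave an intermediate reading for most of these genes. Of the 69 switched on in CT1BA5, 15 were at 5 CPM or more and 15 at 0.5 CPM or less in both BMFA3 libraries, and 39 lay elsewhere; the BMFA3 mean was between the CT1BA5 and parental means for 58. Of the 38 switched off, 5 were at 5 CPM or more and 7 at 0.5 CPM or less in both BMFA3 libraries, with the mean between for 37. The rule used CT1BA5 and parental values, so an in-between BMFA3 mean is in part set by the choice. Mmp9 had 7.55 and 9.34 CPM in BMFA3 cells, and the log2 difference of CT1BA5 from BMFA3 was 6.29 ± 0.11 (edgeR adjusted p = 1.5e-17). Gucy1a1 had 25.3 and 31.1 CPM in BMFA3 cells, and Elfn1, a synaptic adhesion protein, and Dkk2, a secreted Wnt regulator, had 7.92 and 8.28 CPM and 8.22 and 6.56 CPM in BMFA3 cells. Ptgs2os2, a noncoding RNA named for its place opposite Ptgs2, had 6.79 and 6.85 CPM in CT1BA5, 17.97 and 16.96 CPM in BMFA3 and 0.4601, 0.291 and 0.147 CPM in parental cells. Against parental cells BMFA3 was called higher for 29.2% and lower for 29.9% of tested genes. Over the same genes CT1BA5 was higher than BMFA3 for 3521 (25.5%) and lower for 3487 (25.3%).

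Beyond single genes, 40 families outside the usual fibroblast lists were followed, and the share of members changed by more than 2-fold varied between them. Against 21.8% of all tested genes, it was 65% for bone, cartilage and tendon genes, 58.6% for striated muscle genes, 55.8% for Ras-like GTPases and their exchange factors, 50% for neuronal adhesion and synaptic vesicle genes and 46.2% for G protein-coupled receptors. It was 7.06% for zinc finger genes named Zfp, 2.6% for mitochondrial ribosomal proteins and 0% for aminoacyl-tRNA synthetases. These are descriptions of the lists, which were chosen with results of these data known. In most of the families that moved widely, members went both ways. Below, counts of members that rose or fell stand against 35.5% and 35.1% of all tested genes, and several families lay near these shares.

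**Figure D4:**
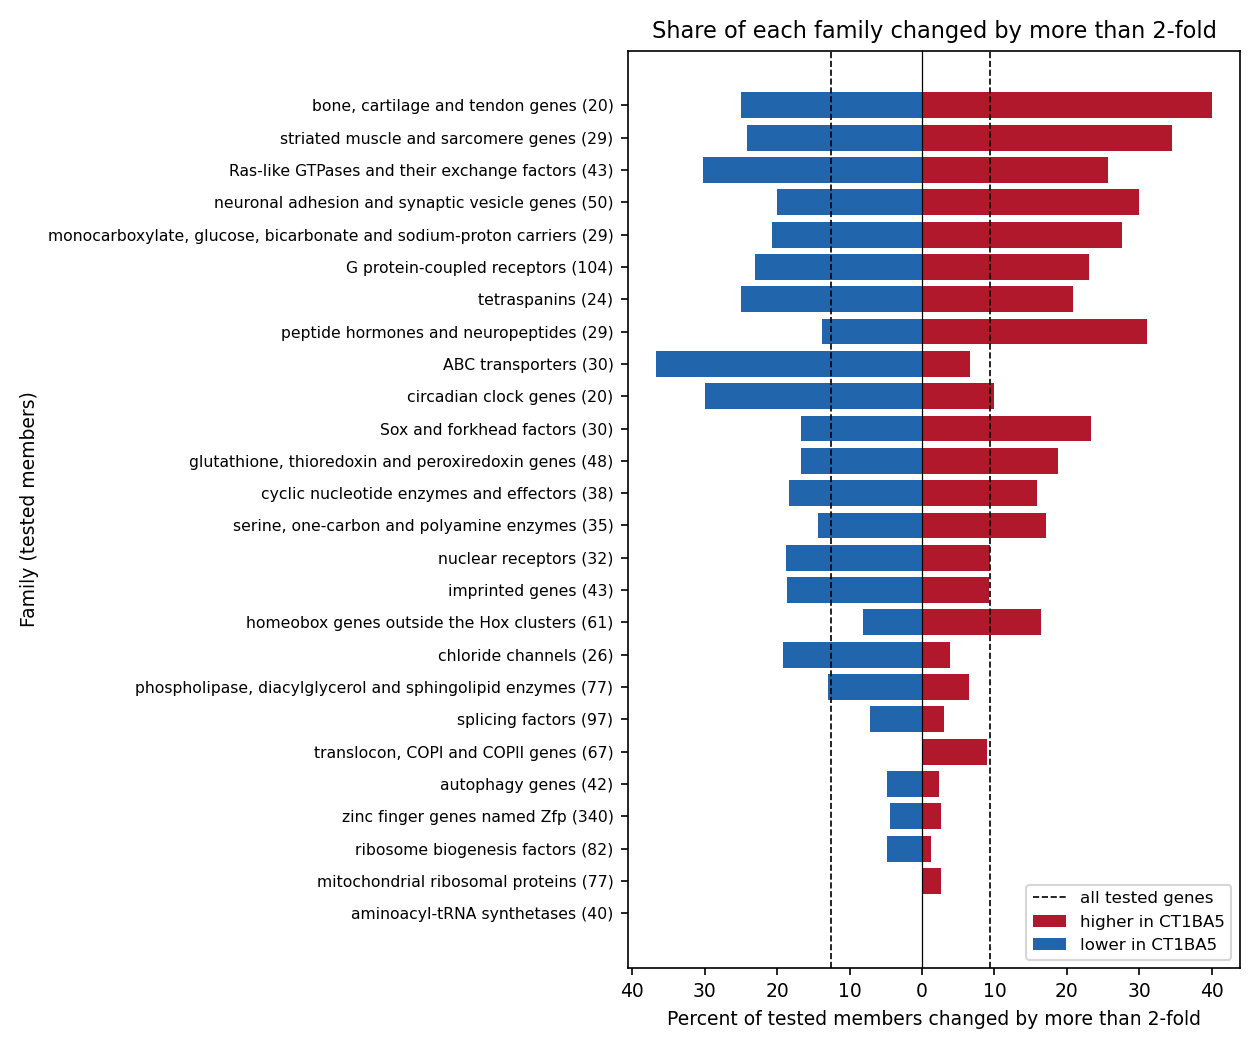
Percent of tested members changed by more than 2-fold (glmTreat) in families with at least 20 tested members; bars to the right are members higher in CT1BA5 and bars to the left members lower in CT1BA5, relative to parental cells. Numbers in brackets are tested members, and dashed lines mark all tested genes at 9.32% higher and 12.5% lower. ABC transporters stand out to the left, and translocon and coat genes have no bar there.

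Receptors coupled to G proteins sense hormones, lipids and peptides at the cell surface. Of 104 tested, 44 rose and 44 fell (36 and 48 with library totals as the scale), 24 and 24 of them by more than 2-fold. Gpr153, an orphan receptor, had 101 and 98.7 CPM in CT1BA5 cells and 4.42, 4.66 and 3.19 CPM in parental cells (log2 4.66 ± 0.11, edgeR adjusted p = 9.0e-18). Adgrg2, an adhesion receptor, had 13.8 and 10.5 CPM in CT1BA5 and 106, 114 and 119 CPM in parental cells (log2 -3.204 ± 0.10, adjusted p = 5.6e-16). Of 9 RGS proteins, which switch off the G protein signal, 7 rose and 2 fell. Rgs16 had 42.9 and 48.1 CPM in CT1BA5 and 4.51, 3.13 and 2.75 CPM in parental cells (log2 3.77 ± 0.15), while Rgs2 had 1.29 and 0.545 CPM in CT1BA5 and 11.3, 10.2 and 11.6 CPM in parental cells. Of 38 enzymes and effectors of cyclic nucleotides, 13 rose and 16 fell (34.2% and 42.1%, against 35.5% and 35.1% of all tested genes). Npr1, the natriuretic peptide receptor that makes cyclic GMP, had 1.81 and 1.25 CPM in CT1BA5 and 41.5, 42.2 and 39.3 CPM in parental cells (log2 -4.71 ± 0.17, adjusted p = 3.6e-15), the same direction as Gucy1a1, the nitric oxide route to that messenger.

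Small GTPases act as switches of growth and shape. Of 43 Ras-like GTPases and their exchange factors, 15 rose and 22 fell, 11 and 13 by more than 2-fold. Rapgef5, an exchange factor for Rap, had 1.29 and 0.779 CPM in CT1BA5 cells and 131, 140.2 and 139 CPM in parental cells (log2 -7.003 ± 0.14, edgeR adjusted p = 4.5e-19). Rapgef3, the cyclic AMP sensor Epac1, had 15.8 and 12.8 CPM in CT1BA5 and 96.1, 96.4 and 103 CPM in parental cells (log2 -2.78 ± 0.09). Rap1gap2, which turns Rap off, had 49.7 and 39.01 CPM in CT1BA5 and 1.66, 1.02 and 1.62 CPM in parental cells (log2 4.94 ± 0.18, adjusted p = 3.2e-15).

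Growth factor families were mixed. Of 13 FGF ligands and receptors 6 rose and 4 fell, 5 and 4 by more than 2-fold. Fgfr1, the receptor form typical of mesenchyme, had 119.5 and 109 CPM in CT1BA5 cells and 13.3, 13.6 and 15.7 CPM in parental cells (log2 2.99 ± 0.09, edgeR adjusted p = 1.4e-16). Fgfr2, whose forms include an epithelial one, had 4.33 and 3.27 CPM in CT1BA5 and 31.8, 30.3 and 35.1 CPM in parental cells (log2 -3.08 ± 0.15, adjusted p = 4.9e-13). The 2 receptors thus moved in opposite directions; other genes overlap the annotated span of Fgfr2. Of 12 hedgehog pathway genes 4 rose and 5 fell (2 and 6 with library totals), and the 3 changes beyond 2-fold were downward: Gas1, a co-receptor, had 162 and 152 CPM in CT1BA5 and 623, 619.8 and 606 CPM in parental cells (log2 -1.97 ± 0.07). The other downward ones were the co-receptor Cdon at log2 -1.47 ± 0.10 and Gli2, a transcription factor of the pathway, at log2 -1.96 ± 0.21. Of 29 peptide hormone, activin and related ligand genes 11 rose and 7 fell. Inhba, the activin A subunit, had 953 and 801 CPM in CT1BA5 and 54.3, 53.9 and 57.9 CPM in parental cells (log2 3.98 ± 0.08, adjusted p = 3.2e-19), and Inhbb, the activin B subunit, had 4.46 and 2.41 CPM in CT1BA5 and 18.04, 20.4 and 21.4 CPM in parental cells (log2 -2.51 ± 0.18). Of 6 angiopoietin family genes 4 rose and 1 fell. Angptl4, an inhibitor of lipoprotein lipase, rose by 3.49 ± 0.08 and Angptl2 by 2.48 ± 0.08 on the log2 scale, while Angptl7, which overlaps Mtor, was switched off at 0.388 and 0.311 CPM in CT1BA5 and 23.7, 28.5 and 28.8 CPM in parental cells.

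Genes named for muscle, nerve and skeleton also split. Of 29 striated muscle genes 13 rose and 12 fell (11 and 12 with library totals), 10 and 7 by more than 2-fold. Fhl2 and Fhl1, LIM-domain proteins of muscle, went opposite ways: Fhl2 had 81.2 and 93.7 CPM in CT1BA5 and 17.7, 18.1 and 20.01 CPM in parental cells (log2 2.22 ± 0.09), and Fhl1 had 37.4 and 35.04 CPM in CT1BA5 and 229.6, 223 and 226 CPM in parental cells (log2 -2.64 ± 0.08). Tnnt2, cardiac troponin T, rose by 2.29 ± 0.14 on the log2 scale (edgeR adjusted p = 2.1e-11). Of 50 neuronal adhesion and vesicle genes 24 rose and 15 fell, 15 and 10 by more than 2-fold. Ncam1, the neural cell adhesion molecule, had 267 and 250.04 CPM in CT1BA5 and 38.4, 35.2 and 41.5 CPM in parental cells (log2 2.75 ± 0.08), and Lrrn4, a mesothelial marker, had 1.36 and 0.623 CPM in CT1BA5 and 58.7, 69.8 and 71.9 CPM in parental cells. Of 20 bone, cartilage and tendon genes 13 rose and 6 fell, 8 and 5 by more than 2-fold. Mgp, an inhibitor of calcification, had 4.59 and 6.31 CPM in CT1BA5 and 161, 144 and 134 CPM in parental cells (log2 -4.76 ± 0.12, adjusted p = 1.9e-17), and Ogn, the small proteoglycan osteoglycin that overlaps Cenpp, had a log2 fold change of -3.25 ± 0.08. Pth1r, described above, and the secreted factor Ccn4 (log2 1.18 ± 0.08) rose.

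Genes of cell contacts and of the cell surface moved in both directions. Of 10 desmosome and plaque genes 3 rose and 6 fell, 1 and 5 by more than 2-fold. Ppl, periplakin, had 3.299 and 2.103 CPM in CT1BA5 cells and 204, 223 and 236 CPM in parental cells (log2 -6.33 ± 0.14, edgeR adjusted p = 1.6e-18), and Evpl, envoplakin, had 2.26 and 2.34 CPM in CT1BA5 and 18.9, 30.6 and 25.5 CPM in parental cells (log2 -3.45 ± 0.22). Of 9 gap junction genes 6 rose and 1 fell (5 and 3 with library totals). Gjb5, a connexin of skin, had 142 and 156 CPM in CT1BA5 and 62.7, 73.7 and 66.6 CPM in parental cells (log2 1.14 ± 0.07, adjusted p = 4.5e-11). The plakins and this connexin moved in opposite directions. Of 24 tetraspanins 9 rose and 10 fell: Tspan8 had 5.95 and 8.41 CPM in CT1BA5 and 368, 347 and 348 CPM in parental cells (log2 -5.64 ± 0.12), and Tspan2 had 31.8 and 29.4 CPM in CT1BA5 and 2.39, 2.91 and 3.29 CPM in parental cells (log2 3.38 ± 0.15). Of 10 annexins 4 rose and 5 fell (2 and 5 with library totals); Anxa1, a calcium-dependent lipid-binding protein, had 748 and 842 CPM in CT1BA5 and 4553, 4256 and 4184 CPM in parental cells, and Anxa6 had 546 and 559 CPM in CT1BA5 and 159, 173 and 168 CPM in parental cells. Of 5 genes on a list of mucins and uroplakins that also held Mcam, 1 rose and 3 fell. The 1 that rose was Mcam, at 55.1 and 50.5 CPM in CT1BA5 and 30.8, 35.9 and 36.4 CPM in parental cells. Muc16, the CA125 antigen, had 2.59 and 0.934 CPM in CT1BA5 and 37.6, 43.7 and 62.3 CPM in parental cells. Of 9 Ly6 and uPAR-like genes 3 rose and 6 fell: Plaur, the urokinase receptor, rose by 1.84 ± 0.08 and Ly6a, the stem cell antigen Sca-1, had a log2 fold change of -4.14 ± 0.11. Of 17 galectin and C-type lectin genes 4 rose and 8 fell (3 and 11 with library totals).

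Among transporters, more ABC family members fell than rose at more than 2-fold. Of 30 ABC transporters 9 rose and 16 fell, 2 and 11 by more than 2-fold (6.67% and 36.7%, against 9.32% and 12.5% of all genes). Abcb1b, a drug efflux pump, had 53.7 and 55.4 CPM in CT1BA5 cells and 315, 406 and 414 CPM in parental cells (log2 -2.79 ± 0.11, edgeR adjusted p = 7.1e-15). Abcg1, an exporter of cholesterol, had 33.6 and 31.1 CPM in CT1BA5 and 2.48, 3.27 and 2.60 CPM in parental cells (log2 3.54 ± 0.15), and Abcb10, a mitochondrial member, had 114 and 106 CPM in CT1BA5 and 20.2, 22.8 and 20.5 CPM in parental cells (log2 2.38 ± 0.08); these were the 2 upward changes beyond 2-fold. Of 29 carriers of lactate, glucose, bicarbonate and protons 12 rose and 11 fell (11 and 12 with library totals). Slc16a3, the lactate exporter MCT4, had 489 and 508 CPM in CT1BA5 and 35.3, 22.4 and 31.5 CPM in parental cells (log2 4.07 ± 0.11, adjusted p = 5.9e-17), and Slc2a1, the glucose carrier GLUT1, rose by 1.43 ± 0.07. Of 26 chloride channel genes 11 rose and 12 fell (7 and 12 with library totals), 1 and 5 by more than 2-fold, and of 10 organic ion carriers 4 rose and 5 fell, with 4 falls and no rise beyond 2-fold. Slc22a23 had 9.19 and 8.18 CPM in CT1BA5 and 65.9, 69.7 and 70.3 CPM in parental cells (log2 -2.98 ± 0.10). Of 11 aquaporin and carbonic anhydrase genes 3 rose and 3 fell (2 and 3 with library totals).

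Among metabolic families, 25 of 48 glutathione, thioredoxin and peroxiredoxin genes rose and 14 fell (20 and 17 with library totals), 9 and 8 by more than 2-fold. Sod3, the extracellular superoxide dismutase, had 290.4 and 309 CPM in CT1BA5 cells and 5.89, 6.77 and 5.89 CPM in parental cells (log2 5.5998 ± 0.09, edgeR adjusted p = 1.3e-20). Prdx5, Prdx6 and Gpx7, peroxidases of the cell and its endoplasmic reticulum, rose by 2.29 ± 0.07, 1.99 ± 0.07 and 2.45 ± 0.08 on the log2 scale. The 4 leading members of that list thus all rose. Of 35 enzymes of serine, one-carbon and polyamine metabolism 18 rose and 12 fell. Ass1, which makes argininosuccinate on the route to arginine, had 1953 and 2093 CPM in CT1BA5 and 317, 338 and 323 CPM in parental cells (log2 2.63 ± 0.06, adjusted p = 9.8e-18). Of 77 phospholipase, diacylglycerol and sphingolipid genes 25 rose and 33 fell (18 and 42 with library totals). Smpd3, neutral sphingomyelinase, which overlaps Prmt7, had 7.83 and 6.46 CPM in CT1BA5 and 570.4, 672 and 699.8 CPM in parental cells (log2 -6.49 ± 0.12, adjusted p = 1.7e-19), and Sphk1, the kinase that makes sphingosine-1-phosphate, had 95.8 and 104 CPM in CT1BA5 and 8.93, 9.39 and 10.6 CPM in parental cells (log2 3.36 ± 0.10, adjusted p = 9.3e-17). Pla2g4a, which frees arachidonic acid for cyclooxygenases, had 519 and 536 CPM in CT1BA5 and 196, 173 and 183 CPM in parental cells (log2 1.52 ± 0.06), the same direction as Ptgs2.

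Parts of the machinery that makes and exports proteins moved mostly upward in small steps, while other parts were split. The translocon admits proteins to the endoplasmic reticulum, and COPII and COPI coats carry them on and return them. Of 67 such genes 52 rose and 6 fell (46 and 12 with library totals), with a median log2 fold change of 0.69 against -0.000458 over all tested genes, and 6 exceeded 2-fold, all upward. Kdelr3, a retrieval receptor that overlaps Ddx17, had 194 and 206 CPM in CT1BA5 cells and 48.96, 51.8 and 51.8 CPM in parental cells (log2 1.97 ± 0.07, edgeR adjusted p = 1.8e-15), and Sec61b, a subunit of the translocon, had 249.8 and 298 CPM in CT1BA5 and 100.5, 89.7 and 94.03 CPM in parental cells (log2 1.53 ± 0.08). Mitochondrial ribosomal proteins behaved alike: of 77, 64 rose and 1 fell (45 and 7 with library totals), at a median of 0.50, and 2 exceeded 2-fold. Mrpl52 had 107 and 122.96 CPM in CT1BA5 and 42.8, 35.7 and 36.5 CPM in parental cells (log2 1.59 ± 0.08, adjusted p = 1.3e-12). Cytosolic ribosomal proteins took 8.4 to 9.68% of counts in CT1BA5 and 4.28 to 4.94% in parental libraries, while the factors that assemble ribosomes in the nucleolus were split. Of 82 ribosome biogenesis factors 27 rose and 27 fell (11 and 41 with library totals), and Dkc1, the pseudouridine synthase dyskerin that overlaps Mpp1, had 14.1 and 17.7 CPM in CT1BA5 and 41.9, 40.03 and 40.9 CPM in parental cells (log2 -1.37 ± 0.11). Of 40 aminoacyl-tRNA synthetase genes 17 rose and 9 fell, a balance that turned to 11 and 13 with library totals. Of 97 splicing factors 31 rose and 35 fell (17 and 54 with library totals), and of 42 autophagy genes 23 rose and 10 fell (15 and 15 with library totals). Celf2, a splicing regulator, had 22.5 and 20.2 CPM in CT1BA5 and 138, 127 and 138 CPM in parental cells (log2 -2.65 ± 0.08, adjusted p = 4.5e-16).

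**Figure D5:**
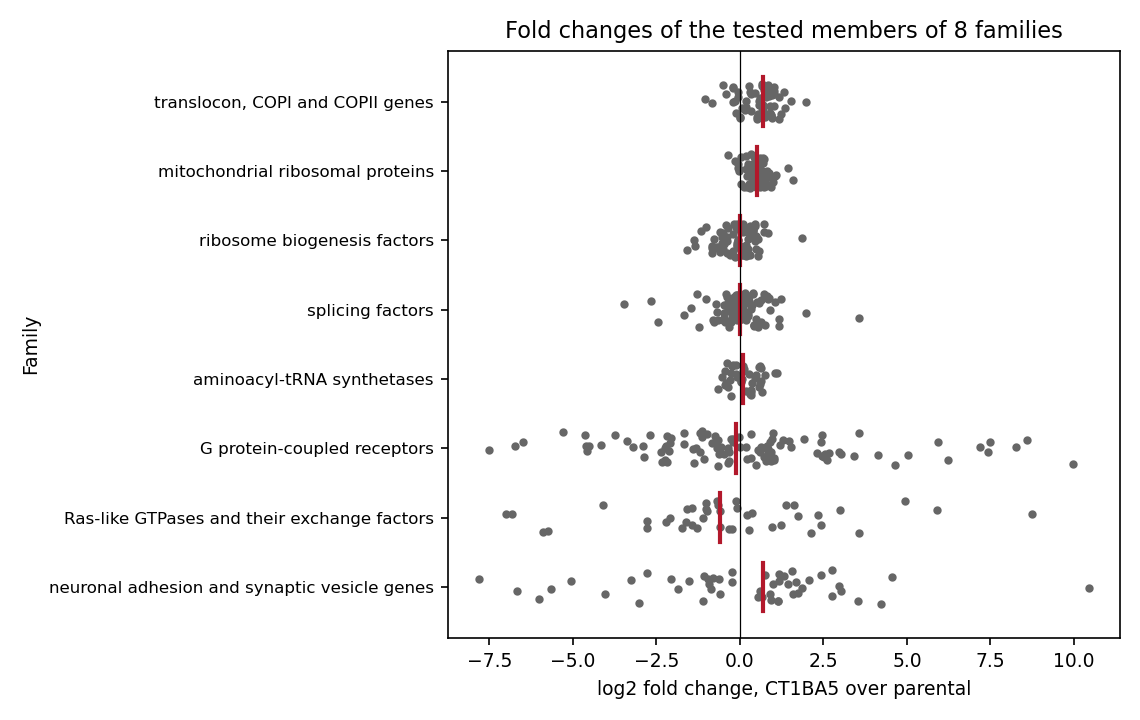
Fitted log2 fold change of CT1BA5 over parental cells (horizontal) for each tested member of 8 families, with the median of each as a red bar; vertical scatter within a family only separates the points. Translocon and coat genes (median 0.69) and mitochondrial ribosomal proteins (median 0.50) sit in a narrow band right of 0, while receptors, Ras-like GTPases and neuronal genes spread widely to both sides.

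Transcription factor families changed with no common direction, beside 35.5% of all tested genes higher and 35.1% lower. Of 61 homeobox genes outside the Hox clusters 25 rose and 13 fell (21 and 21 with library totals), 10 and 5 by more than 2-fold. Tgif1, a repressor in TGF-beta signalling, had 111 and 121 CPM in CT1BA5 cells and 29.8, 24.96 and 28.2 CPM in parental cells (log2 2.07 ± 0.08, edgeR adjusted p = 1.0e-14), and Pknox2, a factor of the TALE class, had 12.6 and 11.8 CPM in CT1BA5 and 0.184, 0.582 and 0.687 CPM in parental cells. Of 12 T-box and GATA factors 3 rose and 7 fell (2 and 8 with library totals). Gata6, a factor of mesoderm and endoderm, had 59.5 and 58.7 CPM in CT1BA5 and 261, 277 and 285 CPM in parental cells (log2 -2.21 ± 0.07, adjusted p = 1.0e-15), the same direction as the switched-off Gata5. Of 30 Sox and forkhead factors 13 rose and 11 fell, or 43.3% and 36.7% (12 and 12 with library totals). Foxs1 and Foxf2, known from pericytes and mesenchyme, had 43.02 and 55.6 CPM and 22.6 and 20.2 CPM in CT1BA5 against 8.56, 7.57 and 8.39 CPM and 2.21, 2.402 and 3.19 CPM in parental cells (log2 2.59 ± 0.12 and 2.998 ± 0.17). Foxa2, a factor of endoderm, had 9.77 and 7.398 CPM in CT1BA5 and 54.4, 56.98 and 53.7 CPM in parental cells (log2 -2.67 ± 0.11). Foxs1 and Foxf2 moved with the tested pericyte and stellate markers given above, whose part in these values was not tested. Of 32 nuclear receptors 13 rose and 11 fell (11 and 12 with library totals), and these shares of 40.6% and 34.4% are near those of all tested genes. Nr4a2, an immediate early receptor, had 18.95 and 15.4 CPM in CT1BA5 and 2.48, 4.003 and 3.29 CPM in parental cells (log2 2.38 ± 0.18). Of 340 genes named Zfp 70 rose and 109 fell (41 and 157 with library totals), with 24 beyond 2-fold.

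Of 20 circadian clock genes, 4 rose and 10 fell, 2 and 6 by more than 2-fold. Bhlhe41 and Bhlhe40, repressors in the clock that also respond to low oxygen, had 62.7 and 64.3 CPM and 432 and 439 CPM in CT1BA5 cells against 4.601, 5.24 and 4.91 CPM and 103, 118 and 112 CPM in parental cells (log2 3.68 ± 0.11 and 1.97 ± 0.07, edgeR adjusted p = 3.1e-16 and 1.6e-15). Per1, a period gene induced by glucocorticoids, had 24.1 and 22.04 CPM in CT1BA5 and 94.1, 83.6 and 98.1 CPM in parental cells (log2 -1.99 ± 0.09); the parental medium held hydrocortisone, and the time of day of harvest is not given in the sources used here. Of 43 imprinted genes 13 rose and 19 fell (11 and 26 with library totals). H19, a noncoding RNA expressed from the maternal copy, had 41.6 and 41.97 CPM in CT1BA5 and 1.66, 0.946 and 1.08 CPM in parental cells (log2 5.13 ± 0.18, adjusted p = 3.3e-15). Dcn, the small proteoglycan decorin, had 33.9 and 38.0 CPM in CT1BA5 and 474, 489.6 and 487 CPM in parental cells (log2 -3.75 ± 0.08, adjusted p = 8.6e-19), and Mest, which overlaps Copg2, was switched off at 0.323 and 0.467 CPM in CT1BA5 and 6.44, 7.93 and 9.12 CPM in parental cells. No allele can be read from these counts.

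The CT1BA5 libraries agreed less closely with each other than those of the other groups, with a median spread of 4.69 times counting noise against 2.28 to 3.12 times between parental pairs. Even so, 12 of 8879 genes at 10 CPM or more were over 2-fold apart between them. The widest were linked to ribosomal RNA or small RNA: Gm23935 had 3611 and 46.5 CPM in CT1BA5 and 37.7, 4788 and 1724 CPM in parental libraries, Lars2 had 1996 and 103 CPM in CT1BA5 and 103, 3000.1 and 1162 CPM in parental libraries, and Rn7sk had 38.3 and 240.0 CPM in CT1BA5 and 147, 54.2 and 14.2 CPM in parental libraries. Such genes varied as much within groups as between them and did not pass the test. The share of counts on ribosomal RNA linked genes was 0.132 to 1.09% in CT1BA5 and 0.115 to 1.75% in parental libraries.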

How the data were processed

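The deposited table holds counts: per the labels it covers sorted and parental PanMeso cells, and its values are whole numbers of reads per Ensembl mouse gene, with 1 column a sample. The submitters' processing notes name CASAVA, DESeq2 1.24.0 and the mm10 genome with no role. No aligner, counter, gene annotation or use of strand in counting is given in the sources used here. Reads of overlapping genes may thus be shared, as for 32 of 220 named genes that have an overlapping partner above 1 CPM. Symbols and places came from GENCODE M21 (GRCm38), which held 54495 of 54532 identifiers, and 31634 genes had 0 counts in every library. Where identifiers shared a symbol (219), the one with the most counts kept it.

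Genes were kept with filterByExpr (minimum count 10; 99.9% of counts), scaled by TMM (factors 0.897 to 1.08) and fitted with the 3 groups in all 7 libraries by edgeR 4.0.16 (R 4.3.3), with quasi-likelihood tests, Benjamini-Hochberg adjustment at 0.05 and glmTreat for more than 2-fold; groups of 2 thus borrow their spread from the rest. The biological coefficient of variation over all genes was 0.0830. A near-0 level was 0.5 CPM and a clear one 5 CPM. Folds against 0 were set against 3 counts per group as a floor, and ratios of few counts have a 95% exact interval; these cover counting error only.

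The groups, families and marker lists were chosen with earlier results of these data known. Named genes were the 12 highest and 12 lowest by fold at 10 CPM or more, the 15 most abundant switched genes each way, the 8 largest gains and losses of mean CPM, the 4 smallest p-values of each family, the 10 genes called in opposite directions in the 2 tumours with the largest difference, and the 3 widest each way between the CT1BA5 libraries. The switched genes named beyond these, and those in the groups they were put in, were chosen after their values were seen. Some genes that met these rules, and 1 family, are not reported here. Motifs were searched in the 250 bases before the RefSeq start nearest to the GENCODE start. Alternatives were RLE scaling, library totals, other filters, other levels, a replicate block, the 5 libraries alone, DESeq2 1.42.0, limma-voom (limma 3.58.1), an adjusted p of 0.01 and leaving out each library.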

Additional observations from a re-analysis of the deposited data

Results flagged for a closer look

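The tumour made with CT1BA5 cells and the one made with BMFA3 cells moved some genes in opposite directions relative to parental cells. At 10 CPM or more in at least 1 group, 421 genes were called higher in one tumour and lower in the other. Of these, 205 were higher and 216 lower in CT1BA5. CT1BA5 differed from BMFA3 by edgeR's quasi-likelihood test in all 421, but the choice of opposite calls nearly fixes that outcome, so it adds no support. Both contrasts share the parental libraries. The 10 with the largest difference are given here, all lower in CT1BA5 and higher in BMFA3. They were ranked by that same difference, so its values and p-values describe genes picked for it.

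Saa3, an acute-phase serum amyloid, had 0.582 and 0.701 CPM in CT1BA5, 112 and 108 CPM in BMFA3 and 2.301, 1.53 and 1.67 CPM in parental cells, a log2 difference of CT1BA5 from BMFA3 of -7.41 ± 0.18 (SE; edgeR adjusted p = 4.7e-17). Il33, an alarmin cytokine, had 3.299 and 2.02 CPM in CT1BA5, 59.5 and 62.03 CPM in BMFA3 and 5.61, 5.89 and 6.28 CPM in parental cells, a log2 difference of -4.48 ± 0.16. Steap4, a metalloreductase induced in inflammation, had 14.04 and 12.8 CPM in CT1BA5, 247 and 242 CPM in BMFA3 and 38.7, 40.3 and 38.7 CPM in parental cells, a log2 difference of -4.19 ± 0.09. These 3 were strongly raised in BMFA3 cells and lower than in culture in CT1BA5 cells. Cp, the copper oxidase ceruloplasmin, which overlaps Hps3, had 2.39 and 0.467 CPM in CT1BA5, 104 and 100 CPM in BMFA3 and 77.9, 74.5 and 72.5 CPM in parental cells, a log2 difference of -6.07 ± 0.20.

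Ptger3, a receptor of prostaglandin E2, had 0.194 and 0.0779 CPM in CT1BA5, 15.3 and 14.8 CPM in BMFA3 and 0.368, 0.437 and 0.5396 CPM in parental cells, a log2 difference of -6.66 ± 0.37; its fall in CT1BA5 relative to parental cells had an edgeR adjusted p of 0.03 from a level of under 1 CPM, and was not called with DESeq2 (adjusted p = 0.0559), limma-voom (0.0616) or a replicate block (0.11), or without CT1BA5 replicate 2 (0.16) or parental replicate 3 (0.09). Chl1, a neural adhesion molecule, differed by -7.05 ± 0.39, Adamts9, a secreted metalloprotease, by -4.72 ± 0.18, and Gdpd2, a glycerophosphodiester phosphodiesterase, by -4.49 ± 0.18 on the log2 scale. Il16, a cytokine gene that overlaps Stard5, differed by -3.82 ± 0.18 and Auts2, a regulator of neuronal development, by -3.81 ± 0.27.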

How the results depend on the processing

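The numbers of genes called for CT1BA5 against parental cells, for more than 2-fold and for CT1BA5 against BMFA3 stayed within 1.5 times under every alternative run. Higher genes numbered 4617 with DESeq2, 4934 with limma-voom and 4464 with a replicate block, and lower genes 4547, 4838 and 4403; leaving out a library gave 4518 to 4866 higher and 4506 to 4823 lower. Replicate numbers are only names: deviations of the CT1BA5 and parental libraries with the same number correlated at -0.101 and -0.025. The replicate block made no other named gene change direction than Rn7sk, at -0.093 on the log2 scale. The numbers of switched genes depend on the levels set. Switched-on genes numbered 237 and 34 with upper levels of 1 and 10 CPM, 12 with 0 parental counts required and 106 with a near-0 level of 1 CPM, and 72 to 79 without 1 library. Switched-off genes numbered 205 with an upper level of 1 CPM, 5 with 0 CT1BA5 counts required and 80 with a near-0 level of 1 CPM, and 39 to 54 without 1 library. Of 3437 values of named genes under alternatives 3408 kept their direction and side of the threshold, 6 lost the call (Car13 with library totals and Ptger3 in 5 settings), 13 gained it and 10 changed sign. Those 10 belong to 6 genes that had not passed the test, Churc1 and others linked to ribosomal or small RNA. Leaving out 1 library, their log2 fold changes ran from -0.82 to 2.06 for Rn7sk, -0.59 to 1.91 for Gm26917, -0.98 to 0.24 for Churc1, -5.55 to 1.05 for Gm23935, -3.68 to 1.16 for CT010467.1 and -3.78 to 0.73 for Lars2; without CT1BA5 replicate 2 the last 3 were at 0.73, 0.62 and 0.49. Fitted folds of genes at few reads moved by over 1.5 times with 1 library, such as Fam180a, at -7.15 and -9.29 without CT1BA5 replicates 1 and 2, so library values are given for them. With 2 CT1BA5 libraries, small differences and genes under about 1 CPM are not resolved.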
